A study of Bos taurus with 16 samples.

Results

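The 34 genes described here encode components, regulators and receptors of the complement system, and were compared between dairy cows with and without subclinical endometritis (SCE), in the endometrium and in white blood cells (WBC) from the circulation. They were chosen by gene symbol from textbook knowledge of the pathway, but with earlier results of these data known. Their counts against all gene names, given below, therefore do not test the genes as a set. A probe of the array belonged to a gene when the scanner files gave it that gene name. On this array 33 of the 34 had probes, 98 probes in all, and no probe carried the name ITGAX. The array named 26554 genes or transcripts. Total RNA of 8 multiparous Holstein-Friesian cows was hybridised to 16 one-colour arrays, so that each of 4 SCE cows (cows 718, 833, 836 and 846) and 4 healthy cows (cows 841, 850, 877 and 883) gave 1 WBC array and 1 array of an endometrial biopsy, both taken from 45 to 55 days post-partum (DPP). Cows were placed in the SCE group by histology of the biopsy in the absence of clinical signs. Both groups mixed cows in luteal and follicular phase, and the phase was not matched to single cows here. Both the biopsies and the circulating WBC are mixtures of cell types.

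Complement is a cascade of plasma and cell surface proteins that tags microbes for uptake, calls leukocytes and can lyse membranes. In the classical and lectin pathways C1q or a lectin binds a target, and the proteases C1r and C1s, or MASP1 and MASP2, cleave C4 and C2 to build an enzyme that cleaves C3. In the alternative pathway factor B (CFB), cut by factor D (CFD) and held in place by properdin (CFP), forms a further C3-cleaving enzyme and amplifies the reaction. The terminal components C5 to C9 assemble the membrane attack complex. Soluble and membrane-bound regulators hold the cascade in check, and the fragments are read by C3AR1, C5AR1 and the integrins ITGAM and ITGB2 on leukocytes. The liver makes most plasma complement, and leukocytes, epithelial cells and stromal cells also make part of it.

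The WBC arrays shared a slide and the endometrium arrays shared the other, and the effects of tissue and of slide cannot be told apart. Each slide had 2 rows, and each row held 2 SCE and 2 healthy cows: 718, 833, 841 and 850 in row 1, and 836, 846, 877 and 883 in row 2. Between 64.7% and 79.8% of the spots of an array were well above background, and at most 1 spot was saturated. The endometrium array of SCE cow 833 stood apart: its median correlation with the other endometrium arrays was 0.937, against 0.97 to 0.976 for the other 7, and it had the fewest spots above background. The WBC array of this cow also had the lowest median correlation of its tissue, 0.972, against 0.983 to 0.989 for the other 7. It had the most spots above background of the WBC arrays (75.8%). Most marker lists followed the tissue labels, but not all. In healthy cows 6 of 7 epithelium markers were higher in endometrium than in WBC and 1 was lower without overlap (-0.80). Of 7 monocyte markers 3 were higher and 4 lower. All 7 measured neutrophil markers, all 5 of T cells and all 3 of B cells were lower in the endometrium of healthy cows than in WBC, all 6 stroma markers and all 5 endothelium markers were higher, and the stroma markers LUM and PDGFRB were well above background on 0 of the 8 WBC arrays.

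The probes of the array are 60 bases long. The sequences below are those of probes on which the comparisons turned: the 3'-most probe of C3, one in its 5' part and the 5'-most, to show that separate stretches of the transcript were read, the probe of C2 and that of CFB with the smallest p in the endometrium, and a pair of C5 probes that share 30 bases, in capitals, but differed in signal. Positions are those of the file headers (cattle build Btau_3.1), and a span longer than the probe means that its bases lie in more than 1 genomic block. In that build the C3 probes map to the plus strand at chr7:16354080-16354139, chr7:16329738-16332264 and chr7:16322555-16322717. The C2 probe maps to the minus strand at chr23:27214582-27214816 and the CFB probe to the minus strand at chr23:27209294-27209815, so that both genes lie side by side, as they also do in the RefSeq table of ARS-UCD2.0, where C4A is close by. The C5 probes map to the minus strand at chr8:115758717-115758776 and chr8:115757008-115758746. Exon annotation of that build was not used here.
C3, 3'-most probe: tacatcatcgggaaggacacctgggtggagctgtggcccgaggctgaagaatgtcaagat
C3, probe in the 5' part: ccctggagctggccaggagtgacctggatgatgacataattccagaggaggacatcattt
C3, 5'-most probe: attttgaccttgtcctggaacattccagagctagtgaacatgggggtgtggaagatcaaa
C2 probe: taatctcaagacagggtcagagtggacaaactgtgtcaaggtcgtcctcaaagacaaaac
CFB probe: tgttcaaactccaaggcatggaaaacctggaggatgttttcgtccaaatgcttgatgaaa
C5, first of the pair: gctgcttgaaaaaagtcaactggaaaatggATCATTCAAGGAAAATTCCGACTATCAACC
C5, second of the pair: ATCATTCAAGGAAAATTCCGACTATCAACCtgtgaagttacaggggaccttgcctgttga

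Most members gave a signal in both tissues. A level here is the log2 spot intensity after quantile normalization, averaged over the probes of a gene, and a gene was detected on an array when at least 1 of its probes was well above background. Of the 33 members, 24 were detected on all 4 WBC arrays of healthy cows and 23 on those of SCE cows, and 22 on all 4 endometrium arrays of either group. All 4 members of the alternative pathway were detected on all 16 arrays. The terminal components were the dimmest arm: of the 7, C5 and C8G were detected on every WBC array, C8A and C8G on every endometrium array of healthy cows, and C8G alone on every endometrium array of SCE cows. The C4b-binding protein chain C4BPB, a soluble regulator, was detected on 0 of 16 arrays. C4BPA, its partner chain, was detected on 0 of 8 WBC arrays, on 2 of 4 endometrium arrays of healthy cows and on 4 of 4 of SCE cows. MASP2 and C9 were not detected in WBC, and vitronectin (VTN), a regulator of the terminal complex, was not detected in endometrium.

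**Figure D1:**
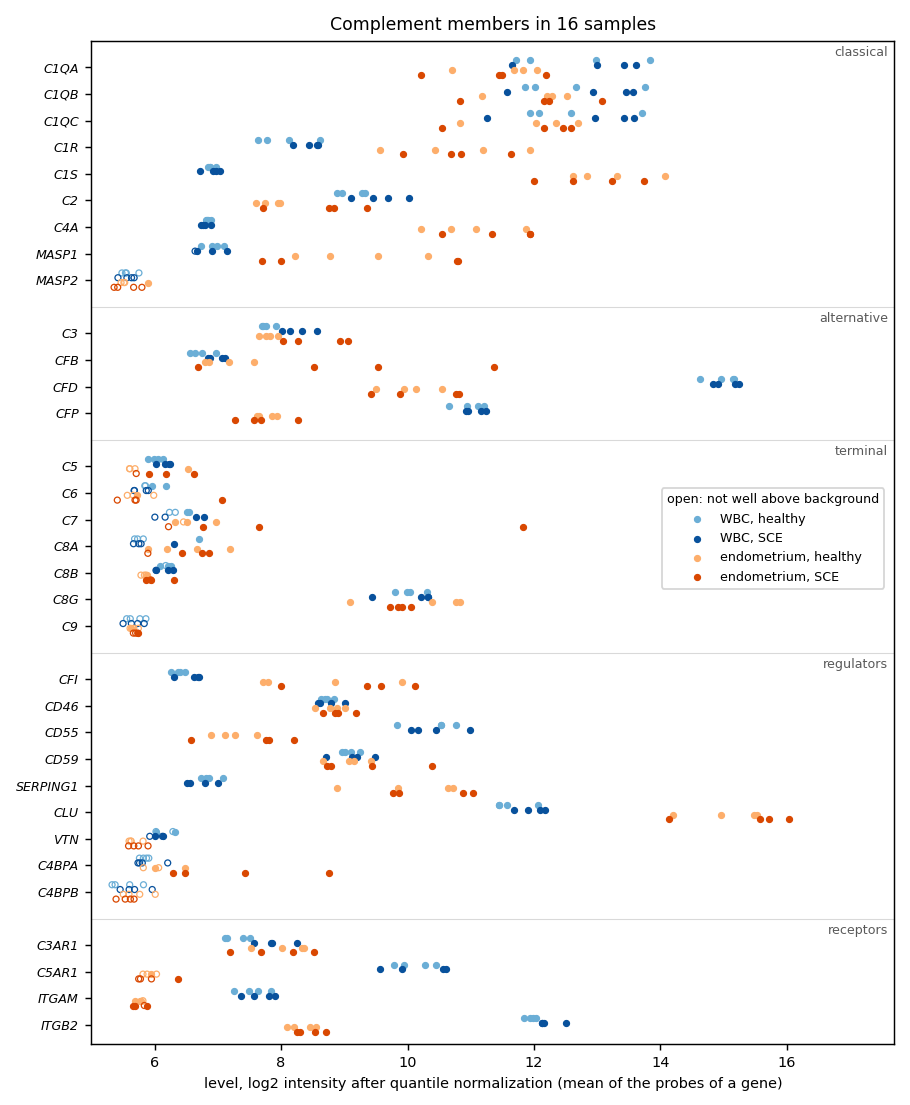
Level of the 33 measured members (horizontal axis, log2 intensity) in each of the 16 samples, grouped by arm of the pathway. Each point is 1 cow, colours mark tissue and status, and open points mark genes with no probe well above background on that array. The dim values lie near 6 and are mostly terminal components, MASP2, VTN, C4BPA and C4BPB, while C1S, C4A and CLU separate the tissues in one direction and CFD, CFP, CD55, C5AR1 and ITGB2 in the other.

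In the endometrium, C3, the component on which all pathways converge, was higher in each SCE cow than in every healthy cow, and CFB, C2 and C4BPA were higher on average but overlapped between the groups. The members had a median difference of 0.11 on the log2 scale between SCE and healthy cows, against 0.0021 over all 26292 gene names with a value, and 23 of 33 were above 0, where 50.5% of all gene names were. The test was limma's TREAT, which asks whether a change exceeds 1.2-fold. No gene name of the array passed it after Benjamini-Hochberg adjustment. Without adjustment 97 gene names passed (0.369%; 0.217% higher and 0.152% lower in SCE cows), and 1 member did, C3. The groups of cows did not overlap for 1.5% of gene names (0.723% higher and 0.776% lower in SCE cows), and for 1 member, again C3. The p-values below are unadjusted except where stated, and a single value was also tested by an exact two-sided permutation test over cows, which cannot go below 0.029 with 4 against 4.

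C3 had endometrial levels of 7.76, 7.95, 7.65 and 7.83 in healthy cows 841, 850, 877 and 883. In SCE cows 718, 833, 836 and 846 the levels were 9.06, 8.93, 8.27 and 8.04. The healthy cows lay within a narrow band below all SCE cows, and the SCE cows of row 1 (718 and 833) were the highest. The difference was 0.78 (SE 0.24), or 1.71-fold (TREAT p = 0.031, exact permutation p = 0.029). It was 1.14 within row 1 and 0.42 within row 2. It no longer passed without SCE cow 833 (0.66) or 718 (0.62), nor without healthy cow 841, 877 or 883.

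C2, the classical pathway protease that pairs with C4, had endometrial levels of 7.98, 7.96, 7.61 and 7.75 in healthy cows 841, 850, 877 and 883. In SCE cows 718, 833 and 836 it was at 8.84, 9.36 and 8.75, and in cow 846 at 7.71. Thus 3 SCE cows lay above all healthy cows and cow 846 within them. The difference was 0.84 (SE 0.32), or 1.8-fold, and did not pass (TREAT p = 0.055, exact permutation p = 0.11). Within row 1 the difference was 1.13 and within row 2 it was 0.55. Without cow 846 it was 1.16 and passed unadjusted, and without cow 833 it was 0.61.

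CFB, the alternative pathway counterpart of C2, had the largest difference of all members. Its levels were 7.57, 7.17, 6.80 and 6.87 in healthy cows 841, 850, 877 and 883. They were 9.54, 11.36 and 8.52 in SCE cows 718, 833 and 836, and 6.69 in cow 846. The order of the SCE cows was that of C2, with cow 833 highest and cow 846 at the bottom, below all healthy cows. The difference was 1.92 (SE 0.85), or 3.79-fold, and did not pass (TREAT p = 0.058, exact permutation p = 0.14). Without cow 833, the array that stood apart, it was 1.15, without cow 846 it was 2.7 and passed unadjusted, and within rows 1 and 2 it was 3.08 and 0.77.

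**Figure D2:**
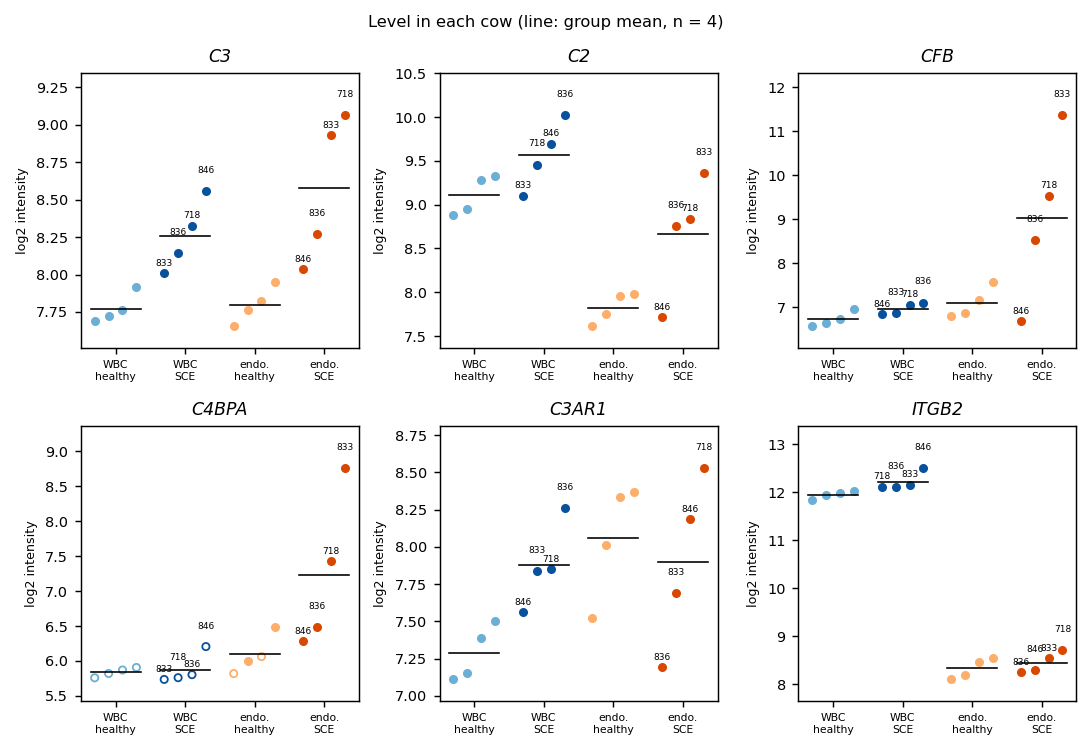
Level of 6 members in each cow (vertical axis, log2 intensity, with its own scale in each panel), for the 4 groups of 4 cows. Points are cows, lines are group means, open points are not well above background, and SCE cows carry their numbers. In the endometrium cows 833, 718 and 836 were above the healthy cows for C3, C2 and CFB. Cow 846 was just above the healthy cows for C3, among them for C2 and below them for CFB. In WBC all 4 SCE cows were above all healthy cows for C3, C3AR1 and ITGB2.

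C4BPA, named here after its values were seen because it followed the same order, had endometrial levels of 6.49, 6.06, 5.82 and 6.01 in healthy cows 841, 850, 877 and 883, of which cows 850 and 877 were below the detection mark. The levels of SCE cows 718, 833, 836 and 846 were 7.43, 8.75, 6.48 and 6.28. The difference was 1.14 (SE 0.50), with 2 SCE cows above all healthy cows (TREAT p = 0.070, exact permutation p = 0.086), and 0.64 without cow 833. C7, a terminal component read by 1 probe, had a mean difference of 1.55 (SE 1.09, exact permutation p = 0.26) that came from cow 833 at 11.83, with the other SCE cows at 6.76, 7.66 and 6.22 and the healthy cows between 6.33 and 6.97. Without cow 833 the difference of C7 was 0.31.

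The arms differed in their medians in the endometrium, but none had a called member other than C3. The regulators had 8 of 9 members above 0 with a median of 0.33, and their highest values after C4BPA were those of complement factor I (CFI), which degrades C3b and C4b, at 0.69 (SE 0.59), and CD55, which splits the C3-cleaving enzymes on host cells, at 0.36 (SE 0.34). The regulators VTN (0.06) and C4BPB (-0.16) were not detected in the endometrium. Without cow 833 the difference of CD55 was 0.70 and passed unadjusted. The alternative arm had a median of 0.48 with 3 of 4 above 0, where CFD was at 0.19 and CFP at -0.07. The classical and lectin arm had 4 of 9 above 0 and a median of -0.0085: beside C2 it held C4A at 0.47 (SE 0.42) and the C1q chains C1QA, C1QB and C1QC between -0.23 and 0.03, while C1R, C1S and the lectin pathway proteases MASP1 and MASP2 lay between -0.32 and 0.11. Of the 7 terminal components 5 were above 0 (median 0.17), and C8G, a chain of C8, was the lowest member at -0.38 (SE 0.36). The receptors lay between -0.16 (C3AR1) and 0.12 (ITGB2).

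The number of members above 0 differed between the rows of the slide. The rows hold different cows, and the effects of row and of cow cannot be told apart. Within row 1, which holds cows 718 and 833, 28 of 33 members were above 0 (median 0.251). Within row 2, which holds 836 and 846, 16 of 33 were (median -0.005). The same counts were not taken over all gene names, so a shift of the members cannot be told apart from that of whole arrays. Without cow 833 the median of the 33 members was 0.027 and 21 were above 0. The median of all gene names was then -0.019. Markers of other cells were compared in the same biopsies, and their summed levels overlapped between the groups for each cell type given here. S100A8, a neutrophil granule protein, was at 7.19, 6.84, 7.23 and 6.31 in healthy cows 841, 850, 877 and 883 and at 8.16, 10.45, 7.36 and 8.01 in SCE cows 718, 833, 836 and 846, without overlap (difference 1.6, SE 0.61, TREAT p = 0.036, exact permutation p = 0.029). Of 7 measured neutrophil markers 6 were higher (median 0.2), and their summed level ranged from 9.47 to 10.27 in healthy and from 9.92 to 12.29 in SCE cows, while CXCR1 and CSF2RB were not detected in the endometrium. All 6 stroma markers were lower (median -0.4, summed level 16.91 to 17.66 in healthy and 15.26 to 17.99 in SCE cows), and 5 of 7 epithelium markers were higher (median 0.63, summed level 12.42 to 15 in healthy and 13.44 to 15.04 in SCE cows). All 5 endothelium markers were higher (median 0.35, summed level 11.79 to 12.54 in healthy and 11.81 to 14.45 in SCE cows), as were all 5 T cell markers (median 0.21, summed level 10.01 to 10.14 and 9.963 to 10.94) and all 3 B cell markers (median 0.15, summed level 12.17 to 12.51 and 12.29 to 12.75). Of 7 monocyte and macrophage markers 3 were higher and 4 lower (median -0.0052). Their summed level was 10.88 to 11.39 in healthy and 10.44 to 11.95 in SCE cows. The part of all these markers in the differences of C3, C2, CFB and C4BPA was not tested. In bulk samples like these, fewer cells of a type and less RNA per cell cannot be told apart.

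**Figure D3:**
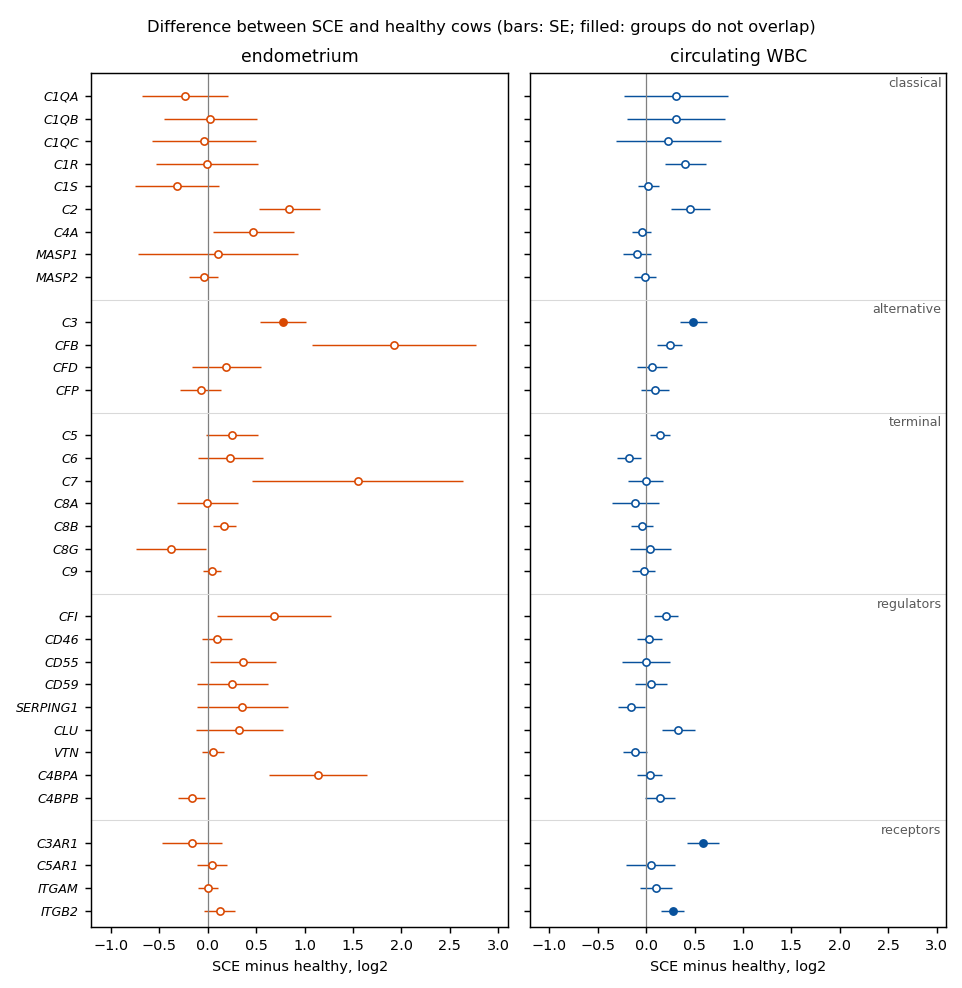
Difference between SCE and healthy cows (horizontal axis, log2, above 0 means higher in SCE) for each measured member in endometrium (left) and circulating WBC (right). Points are differences of 4 against 4 cows, bars are standard errors, and filled points mark members whose groups of cows did not overlap. C3 is filled in both tissues, C3AR1 and ITGB2 in WBC only, and the values of CFB, C7 and C4BPA are large with wide bars in the endometrium.

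In circulating WBC, C3AR1, the receptor for the C3 fragment C3a, C3 itself and ITGB2, the beta chain shared by the complement receptor integrins, were higher in each SCE cow than in every healthy cow. The 33 differences lay between -0.18 and 0.59, against -0.38 and 1.92 in the endometrium. The members had a median difference of 0.053, against -0.0081 over all gene names, and 22 of 33 were above 0, where 47.4% of all gene names were. No gene name passed TREAT after adjustment. Without adjustment 24 gene names passed (0.0913%; 0.0647% higher and 0.0266% lower in SCE cows), among them 1 member, C3AR1. The groups did not overlap for 1.34% of gene names (0.582% higher and 0.753% lower in SCE cows) and for 3 of the 33 members, all higher. Within row 1, 16 of 33 members were above 0, and within row 2, 22 of 33 were. These row counts were not taken over all gene names. Without cow 833, 273 gene names passed unadjusted, among them C2, C3 and C3AR1, and none passed after adjustment.

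C3AR1 had levels of 7.11, 7.39, 7.50 and 7.15 in WBC of healthy cows 841, 850, 877 and 883. In SCE cows 718, 833, 836 and 846 they were 7.85, 7.84, 8.26 and 7.56. Cow 846 was the lowest of the SCE cows, just above the highest healthy cow. The difference was 0.59 (SE 0.16), or 1.5-fold (TREAT p = 0.039, exact permutation p = 0.029), and was 0.59 within row 1 and 0.58 within row 2. The difference no longer passed without cow 718 (0.60), 836 (0.46), 841 (0.53) or 883 (0.54). Monocyte markers, of a cell type known to carry this receptor, were higher in 4 of 7 cases (median 0.085), and their summed level was 12.57 to 13.3 in healthy and 12.92 to 13.35 in SCE cows. One of them, CSF1R, was named after its values were seen. Its difference, 0.54 (SE 0.20, exact permutation p = 0.057), was the largest of the 7. In the same order of cows it was at 10.82, 11.55, 11.41 and 11.73 in healthy cows. In SCE cows it was at 11.74, 12.02, 11.72 and 12.21, and the groups overlapped. Lower in SCE cows were 3 of the 7 markers, down to -0.39. The part of the monocyte markers in the difference of C3AR1 was not tested.

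C3 had WBC levels of 7.72, 7.92, 7.69 and 7.76 in healthy cows 841, 850, 877 and 883. The levels of SCE cows 718, 833, 836 and 846 were 8.33, 8.01, 8.14 and 8.56. The groups did not overlap, and cow 846, the lowest SCE cow in the endometrium, was the highest in WBC. The difference was 0.49 (SE 0.14), or 1.4-fold (TREAT p = 0.068, exact permutation p = 0.029). It was 0.35 within row 1 and 0.63 within row 2, 0.57 without cow 833, when it passed unadjusted, and 0.39 without cow 846.

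ITGB2 was at 11.84, 11.94, 12.03 and 11.99 in WBC of healthy cows 841, 850, 877 and 883, and at 12.12, 12.16, 12.12 and 12.50 in SCE cows 718, 833, 836 and 846. The groups did not overlap, but the difference of 0.27 (SE 0.12) was near the 1.2-fold that TREAT asks to be exceeded (TREAT p = 0.47, exact permutation p = 0.029), and was 0.18 without cow 846. Its partner chain ITGAM was at 0.10 (SE 0.16) and C5AR1, the receptor of the C5 fragment C5a, at 0.05 (SE 0.25). Markers of platelets were higher in 4 of 4 cases in these WBC (median 0.32, summed level 14.24 to 14.78 in healthy and 14.49 to 15.78 in SCE cows), and 3 of 7 neutrophil markers were (median -0.15, summed level 16.34 to 16.98 in healthy and 16.15 to 17.4 in SCE cows). Their part in the differences of C3 and ITGB2 was not tested.

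C2 and CFB overlapped between the groups in WBC. C2 was at 9.28, 9.33, 8.88 and 8.96 in healthy cows 841, 850, 877 and 883 and at 9.46, 9.10, 10.02 and 9.70 in SCE cows 718, 833, 836 and 846. Its difference was 0.46 (SE 0.20, TREAT p = 0.18, exact permutation p = 0.11), all of it in row 2, where it was 0.94 against -0.02 in row 1, and without cow 833 it was 0.61 and passed unadjusted. CFB was at 6.57, 6.97, 6.75 and 6.64 in the healthy cows and at 7.06, 6.88, 7.11 and 6.85 in the SCE cows, in the same order, with a difference of 0.24 (SE 0.13, TREAT p = 0.56, exact permutation p = 0.086). Cow 833, the highest in the endometrium for both genes, was the lowest SCE cow in WBC for C2.

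The classical and lectin arm had 6 of 9 members above 0 (median 0.23), and C1R at 0.40 (SE 0.21) came next to C2. The alternative pathway proteins CFD and CFP were at 0.06 and 0.09. Of the regulators 6 of 9 were above 0 (median 0.037), with clusterin (CLU), which binds the terminal complex, at 0.33 (SE 0.17). These 6 include C4BPA (0.037) and C4BPB (0.14), which were not detected in WBC. The C1 inhibitor SERPING1 was at -0.15 (SE 0.14), but its 4 probes differed. One was at -0.72, which passed unadjusted in the fit of single probes (adjusted p = 1), and the other 3 lay between -0.02 and 0.12. Of these 3, the probe at 0.01 was well above background on all 4 WBC arrays of each group. The probe at 0.12 was so on 2 of 4. The probe at -0.02 was so on 0 of 4, so that it could not show a fall. Of the terminal components 2 of 7 were above 0 (median -0.025, range -0.18 to 0.14).

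For no member did the SCE effect differ between the tissues past the threshold. The difference of the SCE effects (endometrium minus WBC) passed TREAT unadjusted for 100 gene names (0.38%; 0.209% above and 0.171% below 0) and for 0 members, and after adjustment for none of either. It was 1.68 for CFB (SE 0.90), 1.11 for C4BPA (SE 0.54), 0.29 for C3 (SE 0.28) and 0.39 for C2 (SE 0.39), each with an adjusted p = 1. For C3AR1 it was -0.75 (SE 0.37, adjusted p = 1): in the endometrium this receptor was at 8.34, 7.52, 8.37 and 8.01 in healthy cows 841, 850, 877 and 883 and at 8.53, 7.69, 7.20 and 8.19 in SCE cows 718, 833, 836 and 846, overlapping throughout. ITGB2 was between 8.1 and 8.56 in the endometrium of healthy and between 8.25 and 8.72 in that of SCE cows.

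C3 was read by 10 probes, the most of any member, and all 10 had a difference above 0 between SCE and healthy cows in both tissues. From the 3'-most probe, whose difference was 1.17 in the endometrium and 0.69 in WBC, the values went down to 0.37 and 0.16 at the 5'-most probe, which lies 31422 bases upstream on the genome and was well above background on 3 of 8 arrays of each tissue. The probe in the 5' part whose sequence is given above, 21875 bases upstream, was an exception with 1.07 and 0.95. In the fit of single probes 5 of the 10 passed unadjusted in endometrial samples and 3 in WBC. The 3'-most probe, its neighbour and this exception did so in both. The 5 probes nearest to the 3' end were well above background on all 16 arrays, and the other 5 on some. The difference of the gene, a mean over the 10 probes, was thus smaller than that of its 3'-most probe.

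**Figure D4:**
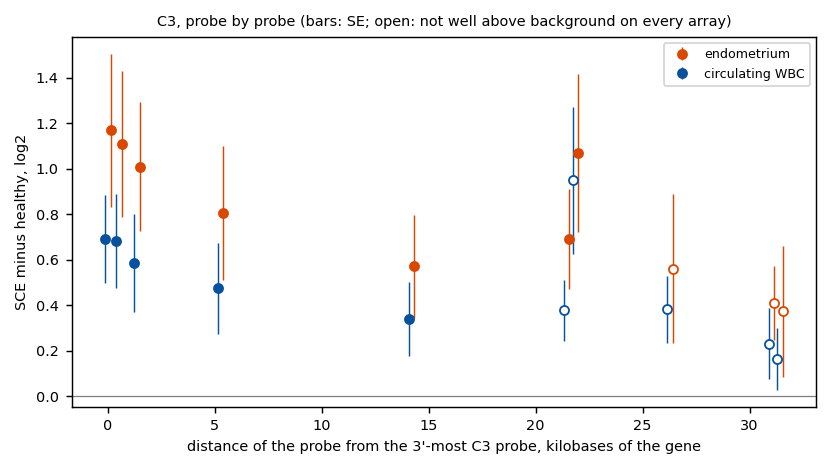
Difference between SCE and healthy cows (vertical axis, log2) for each of the 10 C3 probes against its genomic distance from the 3'-most probe (horizontal axis, kilobases), in endometrium and circulating WBC. Bars are standard errors and open points mark probes that were not well above background on every array of the tissue. All 20 points are above 0, and those nearest the 3' end are filled in both tissues.

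Of the pair of C2 probes, that with the sequence above had a difference of 1.19 in the endometrium, which passed unadjusted, and 0.59 in WBC. The other had 0.50 and 0.33. That probe was well above background on all 16 arrays, and the one with the sequence above on 2 of 4 endometrium arrays of healthy and 4 of 4 of SCE cows. For the 4 CFB probes, 2 of which were not well above background in the endometrium of healthy cows, the measured differences ranged from 1.14 to 2.63 in endometrial samples and from -0.09 to 0.64 in WBC. The CFB probe given above was well above background on 0 of 4 endometrium arrays of healthy cows and 3 of 4 of SCE cows. In WBC it was so on 0 of 8 arrays. Its mean in the endometrium was thus at least 2.9-fold higher in these SCE cows. This bound does not allow for the spread between cows (difference 1.55, SE 0.53). Of the 4 probes this alone passed unadjusted. All these single-probe values had an adjusted p of 1.

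**Figure D5:**
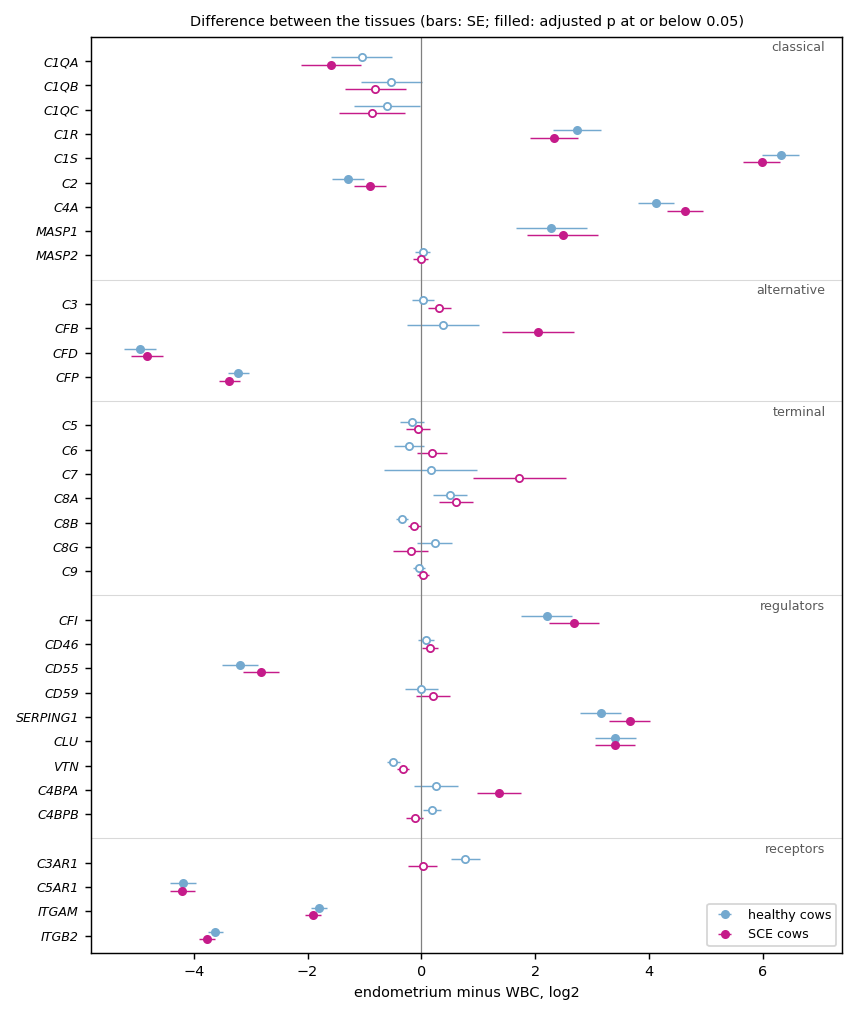
Difference between endometrium and circulating WBC (horizontal axis, log2, above 0 means higher in endometrium) for each measured member, in healthy and in SCE cows. Bars are standard errors and filled points have an adjusted p at or below 0.05. The proteases C1R and C1S, C4A, MASP1, CFI, SERPING1 and CLU are filled on the right and CFD, CFP, C2, CD55, C5AR1, ITGAM and ITGB2 on the left for both groups of cows.

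Between the tissues, C1R, C1S, C4A, MASP1, CFI, SERPING1 and CLU were higher in endometrium in both groups of cows, and C2, CFD, CFP, CD55, C5AR1, ITGAM and ITGB2 were lower. In SCE cows CFB and C4BPA were also higher and C1QA was lower. In healthy cows 12035 of 26292 gene names (45.8%; 19.3% higher and 26.4% lower in endometrium) passed TREAT after adjustment, and of the 33 members 7 were higher and 7 lower. In SCE cows 11548 gene names passed (43.9%; 19.1% higher and 24.9% lower), and 9 members were higher and 8 lower. The share of members called was thus near that of all gene names. With arrays normalized within each tissue 18 members passed in healthy cows, 12 higher and 6 lower, and 21 in SCE cows, 15 higher and 6 lower. Over all gene names 11951 and 11721 passed in this setting. The tissues did not overlap for 17 members in healthy cows, 8 higher and 9 lower (60.4% of gene names; 24.4% higher and 36% lower), and for 15 in SCE cows, 8 higher and 7 lower (46.1%; 18.5% higher and 27.6% lower). Over all gene names the median difference was -0.15 in healthy and -0.14 in SCE cows, and it was 0.33 and 0.34 when arrays were normalized within each tissue, which raised the share of higher among all calls from 42.2% to 80.8% and from 43.4% to 81.8%. These comparisons use the same arrays as those between SCE and healthy cows.

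C1S, the protease that cleaves C4 and C2, was at 6.87, 6.97, 6.88 and 6.84 in WBC and at 12.62, 14.07, 13.31 and 12.84 in endometrium of healthy cows 841, 850, 877 and 883. In SCE cows 718, 833, 836 and 846 it was at 6.93, 6.72, 6.96 and 7.03 in WBC and at 13.74, 12.61, 12 and 13.23 in endometrium. The tissues were far apart in every cow, with a mean difference of 6.32 in healthy (SE 0.33, adjusted p = 4.5e-10) and of 5.98 in SCE cows (adjusted p = 9.5e-10), but these means depend on the probes. The 1 of its 3 probes that was well above background in WBC had differences of 4.73 and 4.42, and the other 2 give bounds of at least 28.4-fold and 564-fold in healthy and at least 23.7-fold and 475-fold in SCE cows. Its partner C1R was higher by 2.74 and 2.33, C4A by 4.12 and 4.64 and MASP1 by 2.28 and 2.48 in healthy and SCE cows (largest adjusted p = 0.009). The single probes of C4A were higher by 1.56 to 5.38 in healthy and by 1.81 to 6.04 in SCE cows. Cattle carry near-identical copies of C4, and the probes named C4A may read more than 1 of them.

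C2 went the other way within its arm. It was lower in endometrium, with a difference of -1.29 in healthy cows (SE 0.28, adjusted p = 0.0035), without overlap, and of -0.90 in SCE cows (SE 0.28, adjusted p = 0.042), with overlap. The latter call was lost in 11 of 21 alternatives, among them the cow as a block (adjusted p = 0.071). With arrays normalized within each tissue the difference of C2 was -0.46 (adjusted p = 0.43) in healthy and -0.01 in SCE cows. C1QA fell in SCE cows (difference -1.59, SE 0.53, adjusted p = 0.034): WBC levels were 13.62, 11.65, 13 and 13.42 in cows 718, 833, 836 and 846 and endometrial levels 12.19, 11.44, 10.21 and 11.49, so that the WBC value of cow 833 lay within the endometrial ones. This call was lost in 7 of 21 alternatives, among them the cow as a block (adjusted p = 0.058). In healthy cows its difference was -1.05 (adjusted p = 0.17), and C1QB and C1QC did not pass in either group.

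CFD, the protease that activates factor B, fell most of the alternative arm. It was at 14.63, 14.96, 15.17 and 15.14 in WBC and at 9.49, 10.14, 10.54 and 9.94 in endometrium of healthy cows 841, 850, 877 and 883. The levels of SCE cows 718, 833, 836 and 846 were 15.24, 14.91, 14.83 and 15.18 in WBC and 10.77, 10.81, 9.43 and 9.88 in endometrium. The differences were -4.95 and -4.82 (SE 0.29, adjusted p = 1.8e-09 and 2.6e-09), and those of CFP were -3.22 and -3.38. CFB was higher in endometrium by 2.05 in SCE cows (SE 0.63, adjusted p = 0.020), with cow 846 below its WBC level, and by 0.37 in healthy cows (adjusted p = 0.78). The call of CFB was lost without cow 833 (1.24, adjusted p = 0.073) and without cow 718 (1.91, adjusted p = 0.084). C3 differed by 0.03 in healthy (SE 0.20) and 0.32 in SCE cows (SE 0.20), and passed in neither, but with arrays normalized within each tissue it was higher by 0.73 (adjusted p = 0.04) and 1.07 (adjusted p = 0.0019).

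None of the 7 terminal components passed after adjustment in either group of cows, and 0 passed unadjusted, where 50.5% and 49.1% of gene names did. This depended on the processing. With arrays normalized within each tissue C8A (0.951, adjusted p = 0.048) and C8G (1.21, adjusted p = 0.011) passed in healthy cows, and C7 (2.34, adjusted p = 0.038) and C8A (1.04, adjusted p = 0.03) in SCE cows. With only probes well above background or the brightest probe C5 passed as lower in both groups, and C8A as higher in SCE cows. With no fold threshold C8B passed as lower in healthy cows. C8A had the largest difference in healthy cows, 0.50 (SE 0.30), with 5.82, 5.68, 6.71 and 5.73 in WBC and 5.89, 6.20, 6.66 and 7.19 in endometrium of cows 841, 850, 877 and 883, which overlap. In SCE cows C8A was at 5.75, 5.79, 6.30 and 5.67 in WBC and at 6.44, 5.89, 6.75 and 6.86 in endometrium of cows 718, 833, 836 and 846. C7 had the largest in SCE cows, 1.72 (SE 0.82, adjusted p = 0.12), through the endometrium of cow 833, against WBC levels of 6.65, 6.78, 6.003 and 6.17 in cows 718, 833, 836 and 846. C5, C6 and C9 lay between -0.22 and 0.19 in both groups.

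C8B in healthy cows and C8G in SCE cows had the lowest differences of the terminal arm. C8B was at 6.26, 6.08, 6.18 and 6.22 in WBC of healthy cows 841, 850, 877 and 883 and at 5.87, 5.78, 5.87 and 5.84 in their endometrium, without overlap (-0.34, SE 0.11, adjusted p = 0.39). C8G was at 10.22, 9.44, 10.32 and 10.32 in WBC of SCE cows 718, 833, 836 and 846 and at 9.91, 9.85, 10.05 and 9.72 in their endometrium (-0.19, SE 0.31). The mean over the 5 probes of C5 hid one that stood out: the second of the pair above was well above background on all 8 WBC arrays and 0 of 8 endometrium arrays, and was at least 4.25-fold lower in endometrium in healthy (adjusted p = 8.6e-07) and at least 5.05-fold lower in SCE cows (adjusted p = 2.2e-07). The first of the pair, which shares 30 of its bases, was well above background on 0 of 16 arrays.

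Among the regulators, CLU was at 12.07, 11.58, 11.44 and 11.45 in WBC and at 15.52, 15.48, 14.20 and 14.95 in endometrium of healthy cows 841, 850, 877 and 883. In SCE cows 718, 833, 836 and 846 it was at 11.90, 11.69, 12.17 and 12.10 in WBC and at 15.72, 15.57, 16.04 and 14.14 in endometrium. The tissues did not overlap, and CLU rose by 3.41 and 3.40 (SE 0.36, adjusted p = 1.8e-06 and 1.9e-06), or 10.6-fold in each group. SERPING1, which blocks C1R and C1S, was at 7.08, 6.81, 6.86 and 6.74 in WBC and at 8.89, 10.72, 10.64 and 9.85 in endometrium of the healthy cows in the same order. The levels of SCE cows 718, 833, 836 and 846 were 6.57, 6.52, 6.80 and 7.01 in WBC and 10.87, 11.04, 9.76 and 9.87 in endometrium. It rose by 3.15 and 3.66 (SE 0.36, adjusted p = 4.8e-06 and 9.3e-07). Its single probes rose by 2 to 5.61 in healthy and by 2.32 to 6.76 in SCE cows.

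CFI rose by 2.2 and 2.68 in healthy and SCE cows (SE 0.44, adjusted p = 0.0012 and 2e-04). Of its 4 probes only 1 was well above background on all WBC arrays. In the fit of single probes it rose by 1.31 (adjusted p = 0.055) and 1.95 (adjusted p = 0.0056). The others were well above background on 0 of 4 WBC arrays of healthy cows. C4BPA, not well above background in WBC, was at least 2.57-fold higher in the endometrium of SCE cows (difference 1.36, adjusted p = 0.017) and had a difference of 0.25 in healthy cows (adjusted p = 0.79). The difference in SCE cows was 0.81 without cow 833 (adjusted p = 0.05), and the call was lost without cow 718 (1.26, adjusted p = 0.078). Such a bound sets the brighter group against, array by array, the higher of the dim gene's own signal and the lowest signal well above background. It rests on group means and does not allow for the spread between cows. CD55 went the other way: it was at 9.83, 10.77, 10.53 and 10.53 in WBC and at 7.12, 7.27, 6.90 and 7.62 in endometrium of healthy cows 841, 850, 877 and 883. In SCE cows 718, 833, 836 and 846 it was at 10.06, 10.98, 10.45 and 10.17 in WBC and at 8.20, 6.58, 7.77 and 7.81 in endometrium. The differences were -3.19 and -2.82 (SE 0.31, adjusted p = 9.3e-07 and 4e-06), with no overlap.

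The other membrane regulators, CD46 and CD59, lay between 0 and 0.20 in both groups and did not pass, but the probes of CD46 disagreed, with one at 2.51 and 2.41 and the other 3 detected ones between -0.81 and -0.31 in healthy and SCE cows. VTN, not detected in endometrium and on 2 of 4 WBC arrays of each group, was at least 1.40-fold lower in endometrium in healthy (adjusted p = 0.059) and at least 1.24-fold lower in SCE cows (adjusted p = 0.46). C4BPB was not well above background in either tissue.

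Of the receptors, C5AR1 fell most. It was at 9.94, 9.78, 10.27 and 10.45 in WBC and at 5.95, 6.03, 5.88 and 5.82 in endometrium of healthy cows 841, 850, 877 and 883. The levels of SCE cows 718, 833, 836 and 846 were 10.60, 9.57, 9.91 and 10.56 in WBC and 6.37, 5.95, 5.75 and 5.78 in endometrium. The differences were -4.19 and -4.20 (SE 0.22, adjusted p = 7.9e-10 and 8.5e-10), and C5AR1 was detected on 1 of 4 endometrium arrays in each group. ITGB2 had differences of -3.62 and -3.77 and ITGAM of -1.80 and -1.90 (largest adjusted p = 1.3e-07). C3AR1 was the receptor with a difference above 0, 0.77 in healthy cows (SE 0.26, adjusted p = 0.072), without overlap, and 0.02 in SCE cows. All 7 measured neutrophil markers were lower in endometrium in both groups, with medians of -5.1 and -4.6, and their part in the falls of C5AR1, ITGAM and ITGB2 was not tested.

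Of 15 further complement genes 12 were measured. Between SCE and healthy cows none passed TREAT unadjusted in either tissue: 7 were higher and 5 lower in the endometrium (median 0.083), and 7 higher and 5 lower in WBC (median 0.0068). Between the tissues 2 were higher and 3 lower after adjustment in healthy cows, and 3 higher and 3 lower in SCE cows. Of all gene names 45.8% and 43.9% passed in these comparisons. VSIG4, a macrophage receptor of C3 fragments, was at least 3.67-fold higher in endometrium in healthy and at least 3.12-fold higher in SCE cows, and the scavenger lectin COLEC12 at least 15.1-fold and 12.3-fold higher, as neither was well above background in WBC. CR2, the complement receptor of B cells, was at least 3.24-fold and 3.67-fold lower in endometrium, and C1RL at least 2.2-fold and 2.16-fold lower. CPN2, a chain of carboxypeptidase N, which inactivates C3a and C5a, had differences of -1.25 and -1.04 (adjusted p = 6.5e-05 and 0.00055), while the catalytic chain CPN1 was higher by 2.08 in healthy (adjusted p = 0.065) and 2.71 in SCE cows (adjusted p = 0.019). PTX3 was at 1.34 in SCE cows, without overlap (adjusted p = 0.051). CD5L had a mean difference of 1.42 in SCE cows (adjusted p = 0.070) that rested on cow 833, at 10 in the endometrium where the others lay between 6.58 and 6.78, and without that cow it was 0.529, a setting chosen after the values were seen.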

How the data were processed

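Total RNA of WBC and endometrium was hybridised to one-colour arrays. Spot intensities, read by the authors with Agilent's Feature Extraction software (10.10.1.1), were deposited as raw scanner output, and a further table holds the values after their quantile normalization. The deposited intensities of 52689 non-control spots per array (46615 probes) were used as median signals without background subtraction. Between 190 and 465 spots per array that the software marked non-uniform or an outlier of its population were dropped, log2 values were quantile-normalized over 16 arrays, and spots were averaged per probe and probes per gene name. A probe with a missing value on any array was left out on all arrays (96 of 98 member probes remained), a choice made after the values were seen. The columns of the authors' table matched the scanner files by row number (Spearman correlation 0.999989 to 0.999999) and were taken as linear intensities in an alternative. Each has a median of 7.855 on the log2 scale.

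Fits used limma 3.58.1 in R 4.3.3 (TREAT at 1.2-fold, Benjamini-Hochberg adjustment over 26292 gene names, threshold 0.05): 8 arrays for each tissue, and 1 model of 4 groups on 16 arrays for tissue differences. Nothing says that a cow was sampled more than once per tissue, so cows are the replicates, and the number of arrays limits the precision. A cow's arrays come from the same animal and are paired. The correlation of their deviations from the group means over 26292 gene names was 0.07, 0.10, 0.08 and 0.09 for healthy cows 841, 850, 877 and 883 and -0.04, -0.22, 0.07 and -0.02 for SCE cows 718, 833, 836 and 846. Detection is the scanner software's mark for a spot well above background. The scripts were tested on simulated data.

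The members, the arms, the marker lists and the further complement genes were chosen with earlier results of these data known. Values of every cow are given for members past unadjusted TREAT or without overlap in a tissue, for C2, C3 and CFB, and in each arm for the largest rise and fall between tissues. Alternatives were normalization within a tissue, normexp correction with an offset of 50, processed signal of the scanner software relative to its 75th percentile, the authors' table, only probes well above background, the median or the brightest probe of a gene, names through RefSeq, no fold threshold, a trended and robust prior, a block for the slide row, a block for the cow, a joint fit of all arrays, missing probe values left out per array (chosen after the values were seen), and leaving out each cow.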

Additional observations from a re-analysis of the deposited data

Results flagged for a closer look

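In 7 of 132 combinations of a member and a group of 4 cows, 1 cow lay so far from the other 3 that the gap, as a share of the range, exceeded Dixon's limit for 4 values, which chance alone passes in about 1 in 20 groups. ITGB2 in WBC of SCE cow 846 was at 12.5, against 12.12 to 12.16 in the other SCE cows, and C8G in WBC of SCE cow 833 was at 9.442, against 10.22 to 10.32. C5 in endometrium of healthy cow 841 was at 6.526, against 5.603 to 5.689 in the other healthy cows, and C8A in WBC of healthy cow 877 at 6.706, against 5.682 to 5.82. MASP2 in endometrium of healthy cow 850 was at 5.892, against 5.468 to 5.526, with 1 probe above background. The remaining pair was not above background on the array concerned: VTN in endometrium of healthy cow 883 at 5.816, against 5.595 to 5.627, and C4BPA in WBC of SCE cow 846 at 6.206, against 5.736 to 5.804. No member moved without overlap in opposite directions in the tissues.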

How the results depend on the processing

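In the comparisons of SCE and healthy cows no member passed after adjustment under any setting. In the endometrium, where C3 passed unadjusted, 2 members passed with normalization within each tissue or no fold threshold (C2 and C3) and with the median of the probes (C3 and CFB), and 4 (C2, C3, CFB and C4BPA) with the scanner-processed signal, the slide row as a block or all 16 arrays in 1 fit. Leaving out a cow gave 0 to 4: 0 without 718, 877 or 883, only C8G without 841, only CD55 without 833, C3 and C4BPA without 836, and C2, C3, CFB and C4BPA without 846. Over all gene names 97 passed unadjusted in the main fit, 103 with normalization within each tissue and 497 with no fold threshold. The count was 103 with the median of the probes, 204 with the scanner-processed signal, 127 with the row block and 252 in 1 fit. It was 72 to 422 with a cow left out, and 422 without 846. The difference of C3 stayed between 0.615 and 1.17 in all 21 alternatives. In WBC, where C3AR1 passed, 0 members did with normexp correction or all 16 arrays in 1 fit, 2 (C3 and C3AR1) with probes well above background, 3 with the brightest probe (also SERPING1) and 4 with no fold threshold (C2, C3, C3AR1 and ITGB2). Leaving out a cow gave 0 to 3, with 0 without 718, 836, 841 or 883. It gave C1R and C3AR1 without 850, and C2, C3 and C3AR1 without 833. Over all gene names 24 passed unadjusted in the main fit, 17 with normexp correction and 19 in 1 fit. The count was 28 with probes well above background, 33 with the brightest probe and 404 with no fold threshold. It was 22 to 273 with a cow left out, and 273 without 833. ITGB2 was at 0.395 in WBC when missing probe values were left out per array. A bright ITGB2 probe (mean 15.17 in WBC of healthy cows) lacked a value on a WBC array of a healthy cow. In this setting the mean of the gene on that array was taken without this probe. For the difference of the SCE effects 0 members passed in the main fit. With the scanner-processed signal 1 did (C4BPA), and with the slide row as a block 2 did (CFB and C4BPA). Without a cow 0 to 2 did, with CFB and C4BPA without 846, C3AR1 without 718 or 850, CD55 without 833 and C4BPA without 836. Over all gene names 100 passed unadjusted in the main fit, 196 with the scanner-processed signal and 118 with the row block. Without a cow 70 to 422 did. Direction turned for C3AR1 in endometrium without cow 836 (0.0742, with a range of -0.37 to 0.0742 over the cows left out) and for the difference of SCE effects of C2 without cow 833 (-0.00112, range -0.00112 to 0.746). Between tissues 13 to 18 members passed in healthy and 13 to 21 in SCE cows. Over all gene names 9538 to 15774 and 9014 to 15407 did. With the cow as a replicate block 14 and 15 members passed, and 11289 and 10817 of 26292 gene names. In SCE cows C2 was lost in 11 of 21 alternatives (normalization within each tissue, normexp, the slide row or the cow as a block, and without any cow but 833) and C1QA in 7 (normalization within each tissue, the brightest probe, either block, and without 718, 836 or 846). Calls were also lost for C2 in healthy cows with normalization within each tissue (adjusted p = 0.43) and the slide row as a block (adjusted p = 0.058), MASP1 in healthy cows without 850 (adjusted p = 0.053), CFI in healthy cows with the brightest probe (adjusted p = 0.054), CFB in SCE cows without 718 (adjusted p = 0.084) or 833 (adjusted p = 0.073) and C4BPA in SCE cows without 718 (adjusted p = 0.078). The causes of these changes were not tested. Within a tissue, no paired analysis was possible because SCE and healthy cows are different animals; the tissues were compared with the cow as a block, as above. Of the members 9 to 11 per group were not detected on all 4 arrays, and their differences are limited by background.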
